A study of Mus musculus with 16 samples.

Results

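The actin isoforms are the proteins that polymerise into the actin filaments of every cell, and mammals have 6 genes for them. They were taken from the tables by symbol, and 5 of the 6 were found among 49452 genes: the muscle actins *Acta2*, *Actg2* and *Actc1* and the cytoplasmic actins *Actb* and *Actg1*. *Acta1*, the skeletal muscle actin, was not analysed here. RNA was sequenced from tdTomato-positive cells that had been sorted from the left lung lobe of 16 mice in 4 groups of 4. *Acta2-tdT* mice carry, on a C57BL6 background, *Acta2-CreERT2* and tdTomatoflox, so that tamoxifen labels cells in which the *Acta2* promoter is active, and *Pdgfra-tdT* mice carry on that background *Pdgfra-CreERT2* and tdTomatoflox, so that it labels cells in which the *Pdgfra* promoter is active. Each line received saline or bleomycin, which injures the lung and leads to fibrosis, and all mice were harvested at day 14 and 11 weeks of age. The labelling differed between the lines. *Acta2-tdT* mice were given tamoxifen in food (400 mg/kg) from 5 days after instillation, and *Pdgfra-tdT* mice had 5 injections of 3 mg at 6 weeks of age, before instillation. Comparisons of the lines therefore also compare the times of labelling, and these cannot be told apart. Every mouse of every group carried Cre and the reporter, and all had tamoxifen. Saline mice are numbered 1 to 4 and bleomycin mice 5 to 8, and values below are listed in that order.

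*Actb* and *Actg1*, the β- and γ-cytoplasmic actins, are made in nearly all cells and build the cortex, stress fibres and moving edges. *Acta2* (αSMA, the α-smooth muscle actin) and *Actg2* (the γ-smooth muscle actin) serve contraction in smooth muscle, and *Acta2* is the usual marker of myofibroblasts in fibrotic lungs. *Actc1* is the main actin of heart muscle. Smooth muscle actin genes are controlled by serum response factor (SRF), which binds CArG boxes with myocardin and related cofactors.

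The 5 proteins are nearly alike, and their coding sequences differ at scattered bases, so the opening stretches are shown to let the isoforms be told apart. The first 60 coding bases were read from GENCODE transcripts of GRCm38, 5′ to 3′, with capitals at positions where the 5 aligned sequences do not all carry the same base, including positions that a sequence lacks.
*Acta2*: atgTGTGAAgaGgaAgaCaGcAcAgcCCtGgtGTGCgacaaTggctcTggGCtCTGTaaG
*Actg2*: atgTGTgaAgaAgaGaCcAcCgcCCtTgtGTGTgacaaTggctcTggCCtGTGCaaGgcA
*Actc1*: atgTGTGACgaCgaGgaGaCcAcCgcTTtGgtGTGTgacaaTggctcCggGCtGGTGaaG
*Actb*: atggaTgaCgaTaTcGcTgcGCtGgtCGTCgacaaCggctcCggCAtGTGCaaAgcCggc
*Actg1*: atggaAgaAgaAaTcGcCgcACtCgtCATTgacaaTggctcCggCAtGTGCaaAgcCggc
The muscle actins open with a cysteine codon after the start codon, and both cytoplasmic actins lack it. Over the whole coding sequence, *Actb* and *Actg1* were identical at 88.7% of aligned bases, *Acta2* and *Actg2* at 84.4%, *Actg2* and *Actc1* at 84.7% and *Acta2* and *Actc1* at 82.5%. Pairs of a muscle and a cytoplasmic actin lay between 81.9% and 83.2%. Of the overlapping windows of 50 bases in each transcript, those found exactly in another of the 5 transcripts were 7 of 1986 (0.352%) for *Acta2*, 30 of 1871 (1.6%) for *Actb*, 37 of 1903 (1.94%) for *Actg1* and none for *Actg2* or *Actc1*. Reads from such windows could be split between isoforms, and how the authors' counting treated them was not tested.

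All 5 genes lie on the minus strand, and the files place them on GRCm38 as follows. *Acta2* (ENSMUSG00000035783) lies at chr19:34241090-34255336, *Actg2* (ENSMUSG00000059430) at chr6:83512905-83536265 and *Actc1* (ENSMUSG00000068614) at chr2:114047282-114052887. *Actb* (ENSMUSG00000029580) lies at chr5:142903115-142906754 and *Actg1* (ENSMUSG00000062825) at chr11:120345690-120348542. The FPKM of a gene sums over its exons. The main transcripts have 9 exons for *Acta2* and *Actg2*, 7 for *Actc1* and 6 for *Actb* and *Actg1*. Because the members are known targets of SRF, the 250 bases before the start were read from the RefSeq promoter table (GRCm38.p6), which held 3 of the 5. GENCODE ends *Acta2* at 34255590 and *Actc1* at 114053548, beyond the ends in the files, so the start sites of these genes differ between annotations. Capitals mark windows that match a CArG box, which is CC, then 6 letters of A or T, then GG, exactly or with 1 letter off. The pattern reads the same on both strands.
*Acta2* (chr19:34255374-34255623, minus strand): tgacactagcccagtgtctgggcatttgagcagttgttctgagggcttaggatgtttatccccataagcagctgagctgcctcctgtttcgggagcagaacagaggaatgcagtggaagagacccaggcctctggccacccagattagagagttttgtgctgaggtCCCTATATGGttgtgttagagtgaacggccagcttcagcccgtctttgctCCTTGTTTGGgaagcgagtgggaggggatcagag
*Actc1* (chr2:114052876-114053125, minus strand): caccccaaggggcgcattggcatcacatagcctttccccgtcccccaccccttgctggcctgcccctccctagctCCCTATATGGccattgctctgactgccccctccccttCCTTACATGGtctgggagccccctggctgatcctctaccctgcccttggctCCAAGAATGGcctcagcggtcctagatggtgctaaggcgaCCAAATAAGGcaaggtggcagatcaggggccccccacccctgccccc
*Actg1* (chr11:120348496-120348745, minus strand): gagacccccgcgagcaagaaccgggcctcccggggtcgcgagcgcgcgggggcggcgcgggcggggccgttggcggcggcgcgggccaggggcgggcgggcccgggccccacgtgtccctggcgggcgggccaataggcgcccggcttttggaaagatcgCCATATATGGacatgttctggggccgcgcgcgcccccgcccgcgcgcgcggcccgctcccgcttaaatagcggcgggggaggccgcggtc
*Actc1* and *Actg1* each held 1 exact box, whose first letter lay 47 and 90 bases before the start. *Acta2* held none and 2 windows with 1 letter off, at 84 and 34 bases, and *Actc1* held 3 more such windows, at 175, 138 and 87 bases. Of all 32851 promoters of the table, 1.47% held an exact box and 18.6% held a window at most 1 letter off. These matches describe the letters only.

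Before any isoform is compared, the mice themselves differed. The FPKM summed over nuclear protein-coding genes ran from 36688 to 60947 in *Acta2-tdT* saline, 241916 to 466183 in *Acta2-tdT* bleomycin, 29964 to 61168 in the *Pdgfra-tdT* mice given saline and 29727 to 147467 in *Pdgfra-tdT* bleomycin, so the tests were run both on FPKM as deposited and on values scaled to a sum of 1000000 over those genes (scaled FPKM). The *Acta2-tdT* bleomycin mice were above all other mice in this sum, and read depth is not known from these values. As a check of the lines, *Acta2* was higher in every *Acta2-tdT* mouse than in every *Pdgfra-tdT* mouse. *Pdgfra* was 2.14 to 3.82 FPKM in *Pdgfra-tdT* saline against 0.273 to 0.562 in *Acta2-tdT* saline, but 0.977 to 2.45 in *Pdgfra-tdT* bleomycin against 2.49 to 11.9 in *Acta2-tdT* bleomycin. Scaled, it was 59.2 to 101 in the former saline group against 6.22 to 15.3 in the latter, and with bleomycin 16.6 to 45.7 against 10.3 to 25.5, which overlap, so the side on which *Pdgfra* lay after bleomycin depended on the scale. Endothelial markers (5 genes, *Pecam1* and *Cldn5* among them) summed to 332 FPKM in *Pdgfra-tdT* saline mouse 3 and 865 in *Pdgfra-tdT* bleomycin mouse 5, against at most 88.2 in any other mouse and 3.5 in *Pdgfra-tdT* bleomycin mouse 8. Leukocyte markers (13 genes) summed to 25014 to 35410.4 scaled FPKM in *Acta2-tdT* saline, 17744 to 30782 in *Acta2-tdT* bleomycin, 1119.9 to 5075 in the *Pdgfra-tdT* mice given saline and 14593 to 40130.0 in *Pdgfra-tdT* bleomycin. The 6 mesenchymal markers summed to less scaled FPKM than the leukocyte markers in every mouse of each group. With saline, the mesenchymal sums were 489 to 657 scaled FPKM (*Acta2-tdT*) and 224 to 930.3 (*Pdgfra-tdT*). After bleomycin they were 3943 to 6271 (*Acta2-tdT*) and 80.4 to 991 (*Pdgfra-tdT*). The part of these cell types in the actin values was not tested. In sorted bulk RNA, fewer cells of a type and less RNA per cell cannot be told apart.

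*Acta2*, the smooth muscle α-actin, was the most abundant muscle actin in every mouse. It was 139, 180.5, 256 and 314 FPKM in the *Acta2-tdT* saline mice and 1541, 1229, 1975 and 3211 FPKM in the *Acta2-tdT* bleomycin mice. It was 2.59, 6.62, 8.92 and 11 FPKM in the *Pdgfra-tdT* saline mice and 19.4, 0.831, 0.836 and 0.834 FPKM in the *Pdgfra-tdT* bleomycin mice. The *Acta2-tdT* groups overlapped neither each other nor the other line, and the highest *Pdgfra-tdT* bleomycin mouse, number 5, was above all *Pdgfra-tdT* saline mice while its 3 companions were below them all. The order of group means was therefore *Acta2-tdT* bleomycin (1989 ± 870.4, SD, n = 4), *Acta2-tdT* saline (222 ± 77.7, SD, n = 4), *Pdgfra-tdT* saline (7.28 ± 3.6, SD, n = 4) and *Pdgfra-tdT* bleomycin (5.48 ± 9.29, SD, n = 4), of which the last neighbours did not differ beyond their spread. Scaled, *Acta2* was 3675 to 5171 in the *Acta2-tdT* mice given saline and 4484 to 6889 in *Acta2-tdT* bleomycin, which overlap. It was 86.3 to 304 scaled FPKM in the *Pdgfra-tdT* mice given saline and 15.3 to 132 in *Pdgfra-tdT* bleomycin.

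*Actg2*, the γ-actin of visceral smooth muscle, was lower than *Acta2* in every mouse, and in every *Acta2-tdT* saline mouse it was also lower than *Actc1*. It was 10.3, 11.5, 26.4 and 31.3 FPKM in the *Acta2-tdT* mice given saline and 239, 194, 342 and 559 FPKM in *Acta2-tdT* bleomycin, with no overlap. It was 0.441, 0.766, 1.01 and 1.57 FPKM in the *Pdgfra-tdT* mice given saline and 6.64, 0.337, 0 and 0.173 FPKM in *Pdgfra-tdT* bleomycin. The lower Cufflinks bound was 0 in *Pdgfra-tdT* bleomycin mice 6, 7 and 8, so *Actg2* in those mice is not told apart from 0. *Acta2-tdT* bleomycin was highest (334 ± 163, SD, n = 4), followed by *Acta2-tdT* saline (19.9 ± 10.6, SD, n = 4), and the *Pdgfra-tdT* groups lay below both and overlapped. Scaled, *Actg2* was 271 to 532 in the *Acta2-tdT* mice given saline and 736 to 1200.0 in *Acta2-tdT* bleomycin, so the gap between these groups remained.

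*Actc1*, the cardiac α-actin, was detected in the *Acta2-tdT* cells of the lung and nearly absent from the *Pdgfra-tdT* cells. It was 30.8, 44.3, 60.1 and 114 FPKM in the *Acta2-tdT* mice given saline and 14.8, 83.3, 26.8 and 81.7 FPKM in *Acta2-tdT* bleomycin, and these ranges overlap. It was 0.801, 0.335, 0.459 and 0.331 FPKM in the *Pdgfra-tdT* mice given saline and 2.57, 0.279, 0.421 and 0.238 FPKM in *Pdgfra-tdT* bleomycin, below every *Acta2-tdT* mouse. The *Acta2-tdT* group means were 62.3 ± 36.4 (SD, n = 4) without and 51.6 ± 36 (SD, n = 4) with bleomycin, neighbours that did not differ beyond their spread on FPKM. When scaled, the picture changed, with 813, 1207, 1213 and 1868 in the *Acta2-tdT* mice given saline and 45.5, 345, 60.7 and 175 in *Acta2-tdT* bleomycin, which no longer overlap. The 9 cardiac muscle markers, of which 2 (saline) and 5 (bleomycin) reached 1 FPKM in any mouse, summed to 5.97 to 11.2 FPKM in the *Acta2-tdT* mice given saline and 33.5 to 59 in *Acta2-tdT* bleomycin, and to 146 to 183 and 98.6 to 167 scaled FPKM, which overlap. Of these markers, 6 are described here, chosen after their values were seen. The cardiac myosin *Myh6* reached at most 0.12 FPKM in the *Acta2-tdT* mice given saline and 0.14 in *Acta2-tdT* bleomycin, and *Nppa* (atrial natriuretic peptide) at most 0.114 and 0. *Tnnt2*, the cardiac troponin T, was 2.89 to 6.56 FPKM with saline and 25.2 to 50.1 with bleomycin, and its scaled values overlapped (64.8 to 108 and 77.5 to 112). *Actn2*, a sarcomeric α-actinin, was 2.38 to 3.34 FPKM with saline and 0.439 to 1.23 with bleomycin, and *Myl4* and *Myl7*, the atrial myosin light chains, reached 6.72 and 8.06 FPKM with bleomycin. The part of these genes' source cells in the *Actc1* values was not tested. The 8 skeletal muscle markers summed to at most 3.26 FPKM in the *Acta2-tdT* mice given saline and 12.3 in *Acta2-tdT* bleomycin, and to 39.1 to 59.3 and 20.8 to 44 scaled FPKM.

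*Actb*, the β-cytoplasmic actin often taken as a reference gene, was far from constant over the 16 mice. It was 149, 146, 159 and 279.9 FPKM in the *Acta2-tdT* mice given saline and 3846, 3258, 5499 and 7797 FPKM in *Acta2-tdT* bleomycin, with no overlap. It was 27.5, 21.4, 298 and 36.6 FPKM in the *Pdgfra-tdT* mice given saline and 1200.3, 281, 235 and 22.9 FPKM in *Pdgfra-tdT* bleomycin. Within the *Pdgfra-tdT* line, saline mouse 3 lay above the other saline mice and bleomycin mouse 5 above the other bleomycin mice, the same mice that had the high endothelial markers, and bleomycin mouse 8 lay within the saline range. The group means fell in the order *Acta2-tdT* bleomycin (5100.1 ± 2033, SD, n = 4), *Pdgfra-tdT* bleomycin (435 ± 523, SD, n = 4), *Acta2-tdT* saline (184 ± 64.4, SD, n = 4) and *Pdgfra-tdT* saline (95.9 ± 135, SD, n = 4), and the last 3 overlapped. Scaled, *Actb* was 3211 to 4593 in *Acta2-tdT* saline, 11844 to 16724 in *Acta2-tdT* bleomycin, 712 to 4871 in the *Pdgfra-tdT* mice given saline and 769.8 to 8139 in *Pdgfra-tdT* bleomycin.

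*Actg1*, the γ-cytoplasmic actin, was lower than *Actb* in every mouse. It was 28.7, 31.6, 36.5 and 45.8 FPKM in the *Acta2-tdT* mice given saline and 649, 565, 1006 and 1429.9 FPKM in *Acta2-tdT* bleomycin. It was 5.46, 5.92, 94.7 and 9.29 FPKM in the *Pdgfra-tdT* mice given saline and 340.2, 79.2, 36.9 and 6.42 FPKM in *Pdgfra-tdT* bleomycin. Again *Pdgfra-tdT* saline mouse 3 and bleomycin mouse 5 were the highest of their groups, and the *Acta2-tdT* groups did not overlap. *Acta2-tdT* bleomycin had the highest mean (913 ± 394, SD, n = 4), and the means of *Pdgfra-tdT* bleomycin (116 ± 153, SD, n = 4), *Acta2-tdT* saline (35.6 ± 7.49, SD, n = 4) and *Pdgfra-tdT* saline (28.9 ± 44, SD, n = 4) followed with overlapping ranges. Scaled, *Actg1* was 736 to 861 in the *Acta2-tdT* mice given saline and 1999 to 3067 in *Acta2-tdT* bleomycin.

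**Figure D1:**
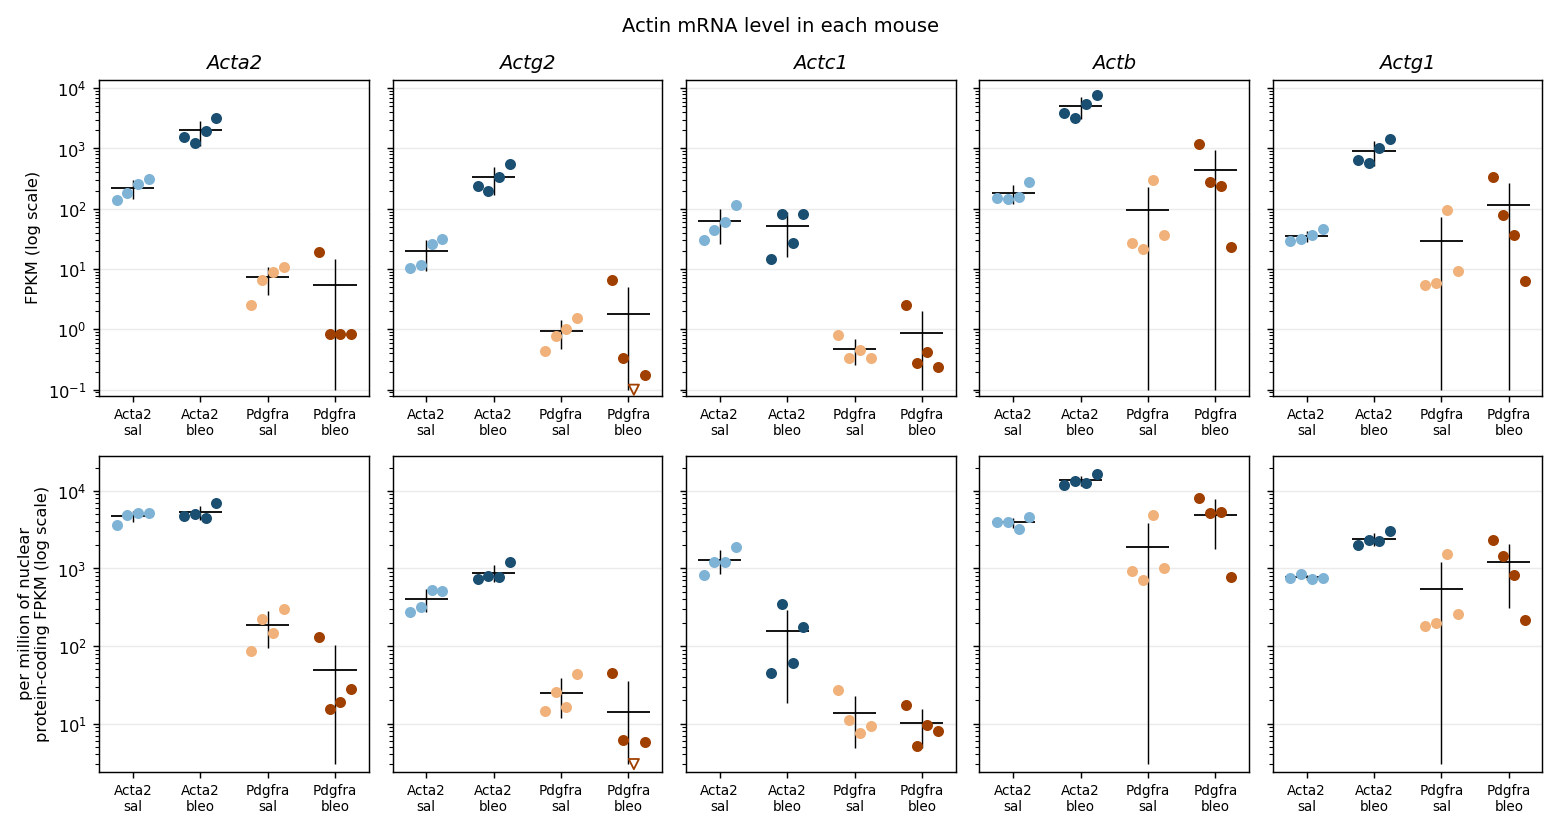
Level of each actin in each mouse, as FPKM (top) and scaled FPKM (bottom), on log axes, where points are mice, horizontal lines group means and vertical lines 1 SD, ended at the foot of the axis where it would pass below, and the open triangle is a value of 0. The muscle actins are high in the *Acta2-tdT* line, and *Actb* in the *Acta2-tdT* bleomycin mice is 3258 to 7797 FPKM, above all other mice.

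The first comparison asked how the cells labelled by either line differ without injury. With saline, the 3 muscle actins were higher in *Acta2-tdT* than in *Pdgfra-tdT* cells on both scales, and neither cytoplasmic actin passed the test (limma, Benjamini-Hochberg adjusted p under 0.05 over all genes tested). Of all genes tested, 2.72% were called higher and 0.184% lower on FPKM, and 3.02% higher and 0.245% lower when scaled. In both comparisons of the lines *Actg2* and *Actc1* reached the 1 FPKM needed for a test through the *Acta2-tdT* mice. At most 2 of 4 *Pdgfra-tdT* mice in a group reached it, so a difference in that direction is partly set by the filter. The calls of these genes between the lines are given as a description and are not read as findings. Differences are log2 fold changes ± SE. *Actc1* gave 5.26 ± 0.44, adjusted p = 0.00134 in limma on FPKM and 5.24 ± 0.44, adjusted p = 8.04e-04 scaled. *Acta2* differed by 4.82 ± 0.50, adjusted p = 0.00329 in limma on FPKM and 4.61 ± 0.55, adjusted p = 0.00299 scaled, but its promoter drives the label of 1 line, so this value checks the sort and is not a finding. *Actg2* differed by 3.30 ± 0.43, adjusted p = 0.00749 in limma on FPKM and 3.23 ± 0.41, adjusted p = 0.00363 scaled. The log2 difference of *Actb* was 1.78 ± 0.81, 95% interval -0.10 to 3.66, adjusted p = 0.389 in limma on FPKM, and that of *Actg1* was 1.32 ± 0.86, 95% interval -0.66 to 3.29, adjusted p = 0.556. Scaled, *Actb* gave 1.52 ± 0.68, 95% interval -0.02 to 3.06, adjusted p = 0.33 in limma, and *Actg1* gave 1.10 ± 0.73, 95% interval -0.55 to 2.74, adjusted p = 0.549. Both values depended on *Pdgfra-tdT* saline mouse 3, which had the high endothelial markers. Without it, *Actb* differed by 2.62 (adjusted p = 0.00417) and *Actg1* by 2.22 (adjusted p = 0.00423) in limma on FPKM, and all 5 actins were called on both scales, in a fit that called 29.4% of all genes on FPKM and 40.2% scaled, in either direction.

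With bleomycin, all 5 actins were higher in *Acta2-tdT* than in *Pdgfra-tdT* cells on FPKM and the 3 muscle actins on the scaled values. *Acta2* too was below 1 FPKM in *Pdgfra-tdT* bleomycin mice 6, 7 and 8 (0.831, 0.836 and 0.834). All 3 muscle actins thus reached this test through the *Acta2-tdT* mice, and their calls are given as a description. The background is wide: 71% of genes tested were called higher and 8.61% lower on FPKM, against 17.3% and 17.5% when scaled, and the median of all genes was 1.81 on FPKM and 0.16 scaled (log2). *Acta2* differed by a log2 value of 9.12 ± 0.99, adjusted p = 6.02e-05 in limma on FPKM and 6.54 ± 0.62, adjusted p = 3.29e-04 scaled, again for the gene whose promoter drives the label. *Actg2* differed by 7.37 ± 0.82, adjusted p = 6.60e-05 in limma on FPKM and 4.85 ± 0.48, adjusted p = 3.83e-04 scaled. *Actc1* differed by 4.63 ± 0.67, adjusted p = 1.96e-04 in limma on FPKM and 2.23 ± 0.51, adjusted p = 0.00986 scaled. The cytoplasmic actins were called on FPKM, *Actb* with 4.53 ± 1.08, adjusted p = 0.00287 and *Actg1* with 4.02 ± 1.14, adjusted p = 0.00709 in limma. When scaled, *Actb* gave 1.89 ± 0.79, 95% interval 0.13 to 3.65, adjusted p = 0.0867 in limma, and *Actg1* gave 1.40 ± 0.78, 95% interval -0.32 to 3.12, adjusted p = 0.179. Scaled *Actb* passed the test without *Pdgfra-tdT* bleomycin mouse 5, at 2.27 (adjusted p = 0.0431), or without mouse 8, at 1.15 (adjusted p = 0.0483) in limma, where 50.9% and 28.4% of all genes were called.

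The next comparison asked what bleomycin changed within the *Acta2-tdT* cells. On FPKM, *Actb*, *Actg1*, *Actg2* and *Acta2* rose, in that order of size, and *Actc1* did not pass the test. On the scaled values *Actb*, *Actg1* and *Actg2* rose and *Actc1* fell. Of all genes tested, 70.4% were called higher and 16.3% lower on FPKM, and 24.5% higher and 32.5% lower when scaled, so 4 of 5 called on FPKM is near the share of all genes. The median of all genes was 1.76 on FPKM and -0.01 scaled (log2). *Actb* rose by 4.76 ± 0.39, adjusted p = 1.19e-05 in limma on FPKM and by 1.79 ± 0.27, adjusted p = 3.41e-04 scaled, and *Actg1* by 4.56 ± 0.41, adjusted p = 1.43e-05 on FPKM and 1.60 ± 0.27, adjusted p = 7.35e-04 scaled. Every bleomycin mouse was above every saline mouse for both genes on either scale. *Actg2* rose by 4.03 ± 0.51, adjusted p = 4.47e-05 in limma on FPKM and by 1.10 ± 0.32, adjusted p = 0.016 scaled. The scaled call of *Actg2* rested on bleomycin mouse 8, without which it was 0.94 (adjusted p = 0.0549) in limma.

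The scales parted for the other muscle actins. *Acta2* rose by 3.13 ± 0.42, adjusted p = 6.31e-05 in limma on FPKM, and scaled it gave 0.16 ± 0.28, 95% interval -0.48 to 0.79, adjusted p = 0.654. Relative to the summed protein-coding FPKM, the interval of *Acta2* thus spanned 0, whereas *Actb* and *Actg1* rose. With quantile normalization of the FPKM, *Actc1* was called lower, at -2.28 (adjusted p = 0.0078) in limma, where 81.3% of all genes were called. On FPKM as deposited *Actc1* gave -0.43 ± 0.64, 95% interval -1.85 to 0.99, adjusted p = 0.53 in limma, and it fell by 3.16 on the log2 scale when scaled (SE 0.54, adjusted p = 8.26e-04, limma). With all 16 mice in 1 fit, *Actc1* was the only actin called on the scaled values, and *Actb* (1.79 (adjusted p = 0.0641)), *Actg1* (1.60 (adjusted p = 0.104)) and *Actg2* (1.10 (adjusted p = 0.0554)) were not (limma), in a fit that called 39.7% of all genes in either direction. The FPKM difference of *Actc1* turned to 0.04 without bleomycin mouse 5. Among all genes tested on the scaled values, 97.7% had a lower log2 difference than *Actb*, 59.2% a lower one than *Acta2* and 4.62% a lower one than *Actc1*.

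In the *Pdgfra-tdT* cells no actin passed the test after bleomycin. *Acta2*, *Actb* and *Actg1* reached an FPKM of 1 in enough mice to be tested, and *Actg2* and *Actc1* did not. The comparison called few genes at all, 0.0275% higher and 0.0962% lower on FPKM and 0.0275% higher and 0.11% lower when scaled. *Acta2* gave a log2 difference of -1.17 ± 0.87, 95% interval -3.16 to 0.81, adjusted p = 0.791 in limma on FPKM and -1.78 ± 0.68, 95% interval -3.25 to -0.30, adjusted p = 0.747 scaled. Before adjustment over all genes, the interval of scaled *Acta2* was the only one of the 3 that did not span 0. *Acta2* was 86.3, 220.4, 146 and 304 scaled FPKM in the saline mice and 132, 15.3, 18.9 and 28.1 scaled FPKM in the bleomycin mice, so 3 of 4 bleomycin mice were below all saline mice. *Actb* gave 2.01 ± 1.29, 95% interval -0.94 to 4.97, adjusted p = 0.791 in limma on FPKM, and *Actg1* gave 1.86 ± 1.32, 95% interval -1.16 to 4.89, adjusted p = 0.791. Scaled, *Actb* gave 1.42 ± 1.09, 95% interval -0.96 to 3.80, adjusted p = 0.747 in limma, and *Actg1* gave 1.30 ± 1.09, 95% interval -1.09 to 3.68, adjusted p = 0.747. Without saline mouse 3 and bleomycin mouse 5, the endothelial-rich pair, *Acta2* was -1.91 and *Actb* 2.02 on FPKM, and no actin was called, in an alternative chosen after seeing the data. With sample quality weights, scaled *Acta2* was called lower at -2.41 (adjusted p = 0.0112) and *Actb* and *Actg1* higher at 2.43 (adjusted p = 0.011) and 2.25 (adjusted p = 0.0125) in limma, but these weights called 49% of all genes.

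The interaction compared the change after bleomycin between the lines. It and the comparisons above share mice, so their values are not independent. The test passed for *Acta2* and *Actg2* on FPKM and, among the 5 actins, for *Actc1* alone on the scaled values. *Actg2* and *Actc1* could not be tested within *Pdgfra-tdT* cells and entered this fit through the *Acta2-tdT* mice. In the *Pdgfra-tdT* mice *Actg2* was 0 to 45.1 and *Actc1* 5.12 to 26.7 scaled FPKM, around the constant of 20 that was added, which leaves little room to fall, so their interactions largely restate the change in *Acta2-tdT* cells and are not read as a difference between the lines. Of all genes tested, 36.6% were called higher and 3.2% lower on FPKM, and 1.39% higher and 0.662% lower when scaled. The interaction of *Acta2* was 4.30 ± 1.07, adjusted p = 0.00645 (log2) in limma on FPKM and 1.93 ± 0.78, adjusted p = 0.202 scaled. In *Pdgfra-tdT* bleomycin mice 6, 7 and 8 *Acta2* was 0.831, 0.836 and 0.834 FPKM and 15.3, 18.9 and 28.1 scaled FPKM. These values lie near the constants of 1 (FPKM) and 20 (scaled) that were added. The *Acta2* promoter also drives the label of the *Acta2-tdT* line, so its interaction is not read as a finding either. The interaction of *Actg2* was 4.07 ± 0.90, adjusted p = 0.00331 in limma on FPKM and 1.61 ± 0.60, adjusted p = 0.171 scaled. For *Actc1* it was -0.63 ± 0.84, adjusted p = 0.556 in limma on FPKM and -3.01 ± 0.69, adjusted p = 0.0353 scaled, and the scaled call was lost when 12 of the 16 mice were left out in turn (estimates -3.17 to -2.65). It was kept without *Acta2-tdT* saline mouse 1, *Acta2-tdT* bleomycin mouse 6, *Pdgfra-tdT* saline mouse 1 or *Pdgfra-tdT* bleomycin mouse 5. Scaled, *Actb* gave 0.37 ± 1.01, adjusted p = 0.877 and *Actg1* 0.31 ± 1.05, adjusted p = 0.905 in limma. For *Actb* and *Actg1* the interaction was 2.75 ± 1.41, 95% interval -0.26 to 5.75, adjusted p = 0.128 and 2.70 ± 1.46, 95% interval -0.41 to 5.81, adjusted p = 0.147 in limma on FPKM. Without *Pdgfra-tdT* bleomycin mouse 5 both passed on FPKM, *Actb* with 3.59 (adjusted p = 0.0279) and *Actg1* with 3.60 (adjusted p = 0.0287) in limma, and *Acta2* and *Actg2* also passed on the scaled values, at 2.41 (adjusted p = 0.0287) and 1.98 (adjusted p = 0.0259) in limma, where 56.2% of all genes were called on FPKM and 11% scaled.

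**Figure D2:**
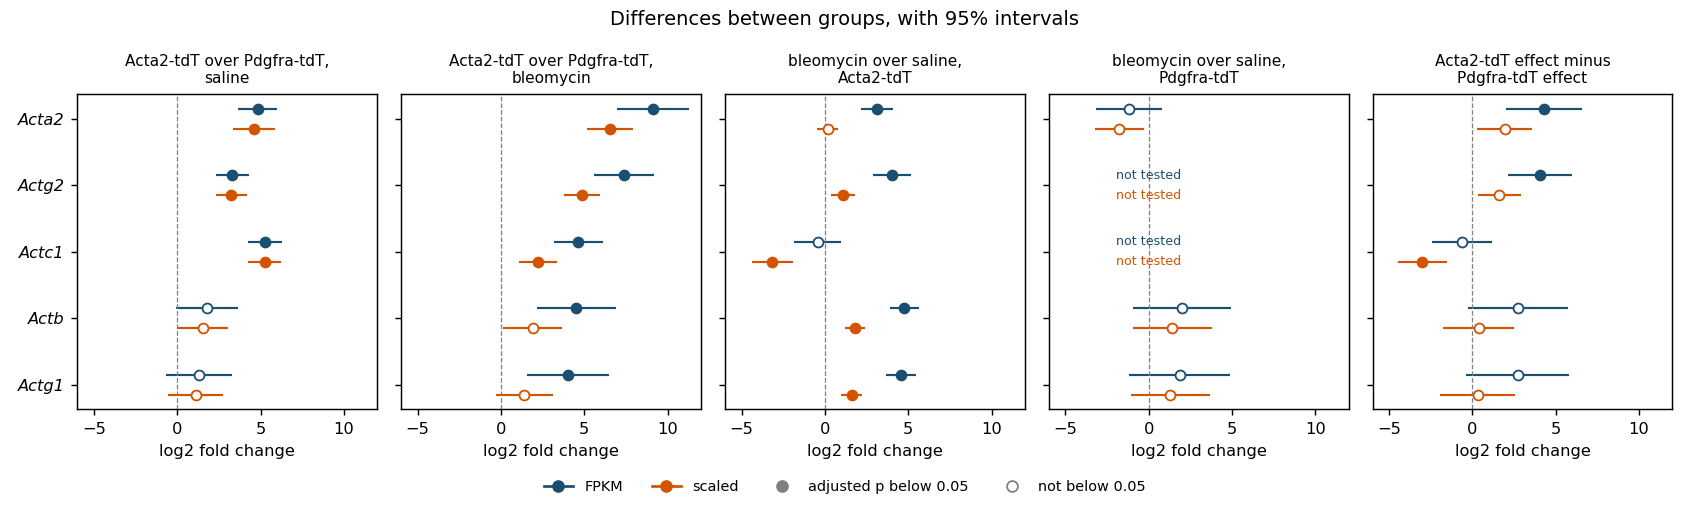
Log2 difference of each actin in the 5 comparisons, on FPKM (blue) and scaled values (orange), with 95% intervals from limma, where filled points have an adjusted p below 0.05. The muscle actins are filled in both comparisons of the lines on both scales, and no point is filled for bleomycin in *Pdgfra-tdT*.

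Because FPKM is per length, the isoforms can be set against each other within a mouse, and their ratio is the same on either scale. Muscle actins made up 50.4, 57, 63.7 and 58.5% of the summed actin FPKM in the *Acta2-tdT* saline mice and 28.5, 28.3, 26.5 and 29.5% in the *Acta2-tdT* bleomycin mice. They made up 10.4, 22, 2.58 and 21.9% in the *Pdgfra-tdT* saline mice and 1.82, 0.399, 0.46 and 4.08% in the *Pdgfra-tdT* bleomycin mice. Muscle actin was thus the larger part in every *Acta2-tdT* saline mouse and the smaller part in every other mouse. In *Acta2-tdT* cells *Acta2* went from 42.5 ± 3.93 (SD, n = 4) to 23.6 ± 1.1 (SD, n = 4) percent of actin FPKM, *Actc1* from 11.2 ± 2.45 (SD, n = 4) to 0.681 ± 0.612 (SD, n = 4) percent, and *Actb* went from 35.5 ± 4.92 (SD, n = 4) to 61 ± 1.04 (SD, n = 4) percent.

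The log2 ratio of muscle to cytoplasmic actin was 0.02, 0.41, 0.81 and 0.49 in the *Acta2-tdT* saline mice and -1.32, -1.34, -1.47 and -1.26 in the *Acta2-tdT* bleomycin mice. It was -3.11, -1.82, -5.24 and -1.83 in the *Pdgfra-tdT* saline mice and -5.75, -7.96, -7.76 and -4.56 in the *Pdgfra-tdT* bleomycin mice. The 4 groups did not overlap, except that *Pdgfra-tdT* saline mouse 3 lay among the *Pdgfra-tdT* bleomycin mice. The difference of bleomycin from saline was -1.78 ± 0.17 (SE) in *Acta2-tdT* and -3.51 ± 1.15 (SE) in *Pdgfra-tdT*, and *Acta2-tdT* lay above *Pdgfra-tdT* by 3.43 ± 0.82 with saline and 5.16 ± 0.82 with bleomycin. No test was made of this ratio, as its members were chosen. The promoter of *Acta2*, its most abundant muscle member, drives the label of the *Acta2-tdT* line. The differences between the lines in this ratio and in the muscle share therefore in part check the sort and are not read as a finding. In *Pdgfra-tdT* bleomycin mice 6, 7 and 8 the ratio rests on muscle actins that were each below 1 FPKM. The spread within *Acta2-tdT* bleomycin, 0.09 (SD, n = 4), was the smallest of the 4 groups, although the mice differed in *Acta2* from 1229 to 3211 FPKM.

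**Figure D3:**
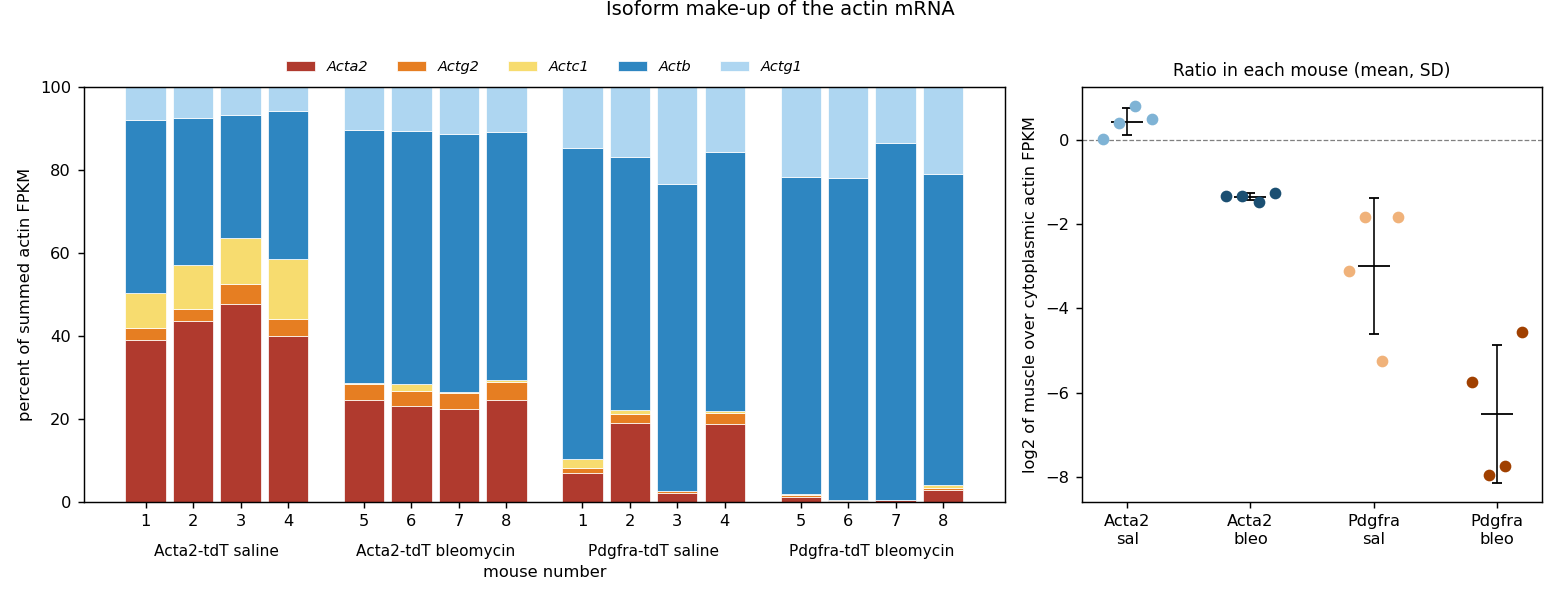
Percent of summed actin FPKM by isoform in each of the 16 mice (left) and the log2 ratio of muscle to cytoplasmic actin (right, points are mice, with mean and SD). Muscle actins make up 50.4 to 63.7% in the *Acta2-tdT* mice given saline and 26.5 to 29.5% in *Acta2-tdT* bleomycin.

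The pool of actin mRNA as a whole also shifted. The 5 actins took 0.944, 1.13, 1.09 and 1.29% of nuclear protein-coding FPKM in the *Acta2-tdT* mice given saline and 1.94, 2.2, 2.01 and 2.81% in *Acta2-tdT* bleomycin. They took 0.123, 0.117, 0.659 and 0.163% in the *Pdgfra-tdT* mice given saline and 1.06, 0.666, 0.619 and 0.103% in *Pdgfra-tdT* bleomycin. The *Acta2-tdT* groups did not overlap, and in the *Pdgfra-tdT* line saline mouse 3 lay with the bleomycin mice and bleomycin mouse 8 below the saline mice.

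Pairs within the family moved apart as well. *Actg2* stood at 7.36, 6.39, 10.3 and 9.98 FPKM per 100 FPKM of *Acta2* in the *Acta2-tdT* mice given saline and at 15.5, 15.8, 17.3 and 17.4 in *Acta2-tdT* bleomycin, with no overlap. *Actc1* stood at 22.1, 24.5, 23.5 and 36.3 FPKM per 100 FPKM of *Acta2* in the *Acta2-tdT* mice given saline and at 0.959, 6.78, 1.35 and 2.54 in *Acta2-tdT* bleomycin, again with no overlap and in the opposite direction. In this line the smooth muscle γ-actin gained on the α-actin and the cardiac actin lost ground to it. In the *Pdgfra-tdT* line *Actc1* per 100 *Acta2* was instead 31, 5.06, 5.14 and 3.02 with saline and 13.2, 33.6, 50.3 and 28.6 with bleomycin, and *Actg2* per 100 *Acta2* was 17.1, 11.6, 11.3 and 14.3 and 34.2, 40.6, 0 and 20.7, ratios of values that were mostly near or below 1 FPKM after bleomycin. *Actg1* stood at 19.3, 21.6, 22.9 and 16.4 FPKM per 100 FPKM of *Actb* in the *Acta2-tdT* mice given saline and at 16.9, 17.3, 18.3 and 18.3 in *Acta2-tdT* bleomycin, which overlap. In the *Pdgfra-tdT* line the saline mice ranged from 19.9 to 31.8 and the bleomycin mice from 15.7 to 28.3, so the balance of the cytoplasmic actins lay between 15.7 and 31.8 over all 16 mice.

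**Figure D4:**
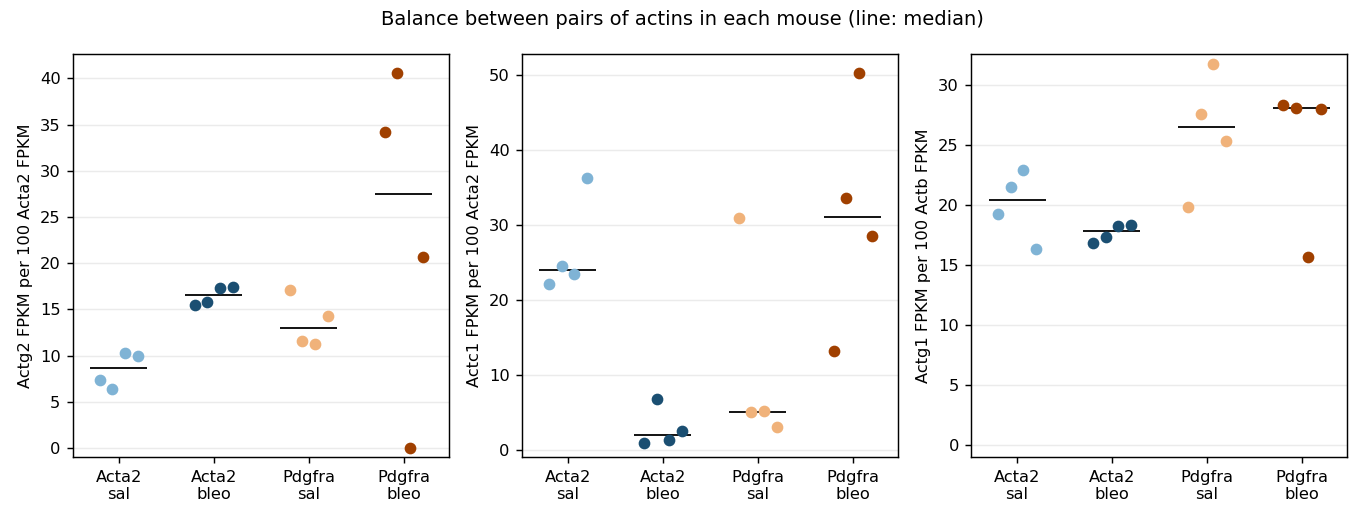
FPKM of *Actg2* and of *Actc1* per 100 FPKM of *Acta2*, and of *Actg1* per 100 FPKM of *Actb*, in each mouse, with lines at group medians. In the *Acta2-tdT* line *Actg2* spans 6.39 to 10.3 with saline and 15.5 to 17.4 with bleomycin, *Actc1* spans 22.1 to 36.3 and 0.959 to 6.78, and the *Pdgfra-tdT* values divide by *Acta2* of at most 19.4 FPKM.

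The genes around the actins were read from 4 lists. Many of their members reached 1 FPKM, and so a test, mainly in the *Acta2-tdT* groups, above all with bleomycin, and counts of higher values among such members follow in part from that filter and are given as a description. The smooth muscle contractile partners (10 genes) form the myosin and thin filament that work with *Acta2*. With saline, 7 of 10 were higher in *Acta2-tdT* than in *Pdgfra-tdT* cells on FPKM and 9 scaled, against 2.72% and 3.02% of all genes, and none was lower, with a list median of 2.89 on FPKM against 0.17 over all genes (log2). All 10 reached 1 FPKM in every *Acta2-tdT* saline mouse and 4 in every *Pdgfra-tdT* saline mouse. *Myl9*, the regulatory myosin light chain, differed by 5.79 ± 0.43, adjusted p = 9.24e-04 and *Tpm2*, a tropomyosin, by 5.52 ± 0.41, adjusted p = 9.24e-04 in limma on FPKM, while *Myl6*, the essential light chain, gave 3.15 ± 0.75, adjusted p = 0.0779. After bleomycin in *Acta2-tdT* cells, 8 of 10 rose on FPKM, where 70.4% of all genes were called higher, and scaled 2 rose and 3 fell, where 24.5% of all genes rose and 32.5% fell, with a scaled median of -0.30 against -0.01 over all genes. On the scaled values *Smtn* (0.62 ± 0.23, adjusted p = 0.0403) and *Tpm1* (1.43 ± 0.26, adjusted p = 0.00116) rose and *Myh11* (-1.83 ± 0.21, adjusted p = 6.27e-05), *Lmod1* (-1.49 ± 0.21, adjusted p = 2.41e-04) and *Myl9* (-1.41 ± 0.31, adjusted p = 0.00352) fell (limma, named after their values were seen), while *Myl6* gave -0.12 ± 0.27, adjusted p = 0.727 and *Tpm2* -0.70 ± 0.28, adjusted p = 0.0558. In the *Pdgfra-tdT* line 4 of the 10 could be tested after bleomycin and none passed on either scale.

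Actin must be folded by prefoldin and the chaperonin TRiC before it can polymerise, and 17 genes of this path were listed. After bleomycin in *Acta2-tdT* cells, 16 of 16 tested rose on FPKM and 10 of 16 on the scaled values, and none fell, where 70.4% (FPKM) and 24.5% (scaled) of all genes rose. Of the 17, 11 reached 1 FPKM in every saline and 16 in every bleomycin mouse of this line. The list median was 1.10 scaled, against -0.01 over all genes (log2). *Tcp1* and *Cct5*, subunits of TRiC, rose by 2.34 ± 0.27, adjusted p = 6.03e-05 and 2.09 ± 0.25, adjusted p = 8.80e-05 in limma on the scaled values, while the prefoldin subunit *Pfdn5* gave -0.36 ± 0.29, adjusted p = 0.312. Between the lines with bleomycin, 7 of 17 were higher in *Acta2-tdT* cells when scaled, against 17.3% of all genes, and with saline none of 14 passed the test on either scale. In the *Pdgfra-tdT* line none of 14 passed after bleomycin. The summed level was 2712 scaled FPKM in saline mouse 3 and 2854 in bleomycin mouse 5, against 416 to 479 in the other saline mice and 1655, 1352 and 353 in bleomycin mice 6, 7 and 8.

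SRF and its cofactors (8 genes) control actin transcription. In *Acta2-tdT* cells 1 of the 8 reached 1 FPKM in every saline mouse and 8 in every bleomycin mouse, so nothing is read from rises on either scale. The 1 that fell scaled, where 32.5% of all genes fell, was *Klf4* (-0.85 ± 0.12, adjusted p = 1.92e-04 in limma), named after its value was seen. *Myocd*, the smooth muscle cofactor myocardin, gave -0.42 ± 0.28, adjusted p = 0.227 and *Mkl2*, a related cofactor, -0.15 ± 0.21, adjusted p = 0.558 in limma on the scaled values. *Srf* itself was 0.0704 to 0.134 FPKM in the *Acta2-tdT* mice given saline and 1.47 to 3.23 in *Acta2-tdT* bleomycin, and 1.15 to 3.65 and 5.33 to 6.93 scaled FPKM. It passed the filter through the bleomycin mice alone, so its values are given with no test. Between the lines, none of 3 tested passed with saline. With bleomycin, 6 of 8 were higher in *Acta2-tdT* cells on FPKM, where 71% of all genes were higher, and scaled 1 was higher and 1 lower, where 17.3% and 17.5% of all genes were, so these counts are near the shares of all genes. The 3 with the largest mean FPKM were *Mkl2*, *Myocd* and *Klf4*. *Mkl2* gave 1.88 ± 0.76, adjusted p = 0.0372 on FPKM and -0.01 ± 0.45, adjusted p = 0.981 scaled in limma. *Myocd* passed the filter through the *Acta2-tdT* mice alone and is given with no test, at 6.07 to 27 FPKM against 0.126 to 0.719 in *Pdgfra-tdT* cells and 18.7 to 58 against 1.42 to 16.3 scaled FPKM. *Klf4*, which represses smooth muscle genes, was lower in *Acta2-tdT* cells when scaled, at -1.73 ± 0.30, adjusted p = 0.00386 in limma.

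The actin-related proteins (18 genes) share the actin fold but nucleate branches, carry dynactin or sit in chromatin complexes, and several are specific to testis. In *Acta2-tdT* cells 0 of the 18 reached 1 FPKM in every saline mouse and 8 in every bleomycin mouse, so 8 of the 9 that could be tested pass the filter on the bleomycin mice alone and nothing is read from rises on either scale. The 1 that fell scaled, where 32.5% of all genes fell, was *Actr6* (-0.79 ± 0.23, adjusted p = 0.0157 in limma), named after its value was seen. *Actr3*, of the branching Arp2/3 complex, was 14.7 to 41.2 scaled FPKM with saline and 55.8 to 76.3 with bleomycin. *Actr1a* and *Actr1b*, of dynactin, were 12.3 to 35.2 and 16.2 to 27.4 with saline and 68.9 to 113 and 55.7 to 87.4 with bleomycin. In the interaction on the scaled values, where 1.39% of all genes were called higher and 0.662% lower, 2 of the 10 contractile partners were lower, *Myh11* (-1.74 ± 0.31, adjusted p = 0.00831) and *Lmod1* (-1.35 ± 0.29, adjusted p = 0.0235), named after their values were seen, and no other gene of the 4 lists passed (limma). Neither could be tested within *Pdgfra-tdT* cells, where they were at most 0.543 and 0.229 FPKM, so as for *Actg2* and *Actc1* these values largely restate the change in *Acta2-tdT* cells (-1.83 and -1.49) and are not read as a difference between the lines.

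Across the 16 mice, likeness to an actin was measured as the root mean square difference of centred log2 scaled values among 10364 genes, and the 5 nearest genes are given as a description. Nearest to *Acta2* were *Tpm2* (0.41), *Myl9* (0.70), *Gpx3* (0.86), *Actg2* (0.98) and *Retnlg* (1.17). Nearest to *Actg2* were *Des* (0.43), *Cnn1* (0.50), *Rcn3* (0.60), *Tpm1* (0.66) and *Cryab* (0.69). Nearest to *Actb* were *Rack1* (0.22), *Pfn1* (0.27), *Tspo* (0.29), *Actg1* (0.34) and *Ppp1ca* (0.34), and nearest to *Actg1* were *Atp5b* (0.26), *Cyb5r3* (0.27), *Atp5a1* (0.28), *Psmd8* (0.30) and *Rab1b* (0.30). Smaller values mean more alike, and the mice share the differences between groups, so these values carry no p. The actin pseudogene *Actg-ps1* was 0.0327 to 0.304 FPKM in the *Acta2-tdT* mice given saline and 0.436 to 2.75 in *Acta2-tdT* bleomycin, at most 0.736 in the *Pdgfra-tdT* groups.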

How the data were processed

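RNA of sorted tdTomato-positive lung cells of 16 mice was sequenced after SmartSeq2 amplification, as stated in the labels. Alignment by the authors to mm10 used TopHat2 2.1.1 (with Bowtie2 2.2.9), and Cufflinks 2.1.1 gave FPKM for each mouse. The deposited FPKM and their bounds hold no counts, so depth is unknown. Rows of a gene (49534 rows, 49452 genes) were summed, and 15 genes with a Cufflinks status other than OK were left out, no actin among them.

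Groups came from the strain and agent in the labels. Differences were tested with limma 3.58.1 (trend) in R 4.3.3 on log2(FPKM + 1) and on log2(scaled + 20), where scaled is FPKM set to a sum of 1000000 over nuclear protein-coding genes. Fold changes on these scales understate those of low genes. Tests covered genes that reached 1 FPKM in 4 or more mice of a fit, with Benjamini-Hochberg adjustment at 0.05. The interaction used all 16 mice. Python 3.11.15, pandas 2.3.3, NumPy 2.4.6, SciPy 1.17.1, the package data.table (version 1.17.8), matplotlib 3.10.9 and MAFFT 7.526 were used. The members of the actin family were all named, list genes were named by mean FPKM (up to 3 a list, with those named after their values were seen marked as such), and likeness by the 5 nearest genes. Members and lists were chosen with earlier results of these data known. Alternatives were another pseudocount, filter, scaling, weights, pooled spread, row choice and each mouse left out. The mice are the replicates, and p-values measure the spread between them.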

Additional observations from a re-analysis of the deposited data

Results flagged for a closer look

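Over 40 sets of 4 mice (5 actins, 2 scales, 4 groups), 6 had a mouse far from the other 3 of its group on the log2 scale, where chance would give about 1 in 20. *Pdgfra-tdT* bleomycin mouse 5 stood above its group for *Acta2* (19.4 FPKM), *Actg2* (6.64 FPKM) and *Actc1* (2.57 FPKM). *Pdgfra-tdT* saline mouse 3 stood above its group for *Actg1* (1549 scaled FPKM). *Acta2-tdT* saline mouse 4 stood above its group for *Actb* (279.9 FPKM), and *Acta2-tdT* saline mouse 1 below its group for *Acta2* (3675 scaled FPKM). The interaction of line and bleomycin passed its test for *Acta2* (4.30) and *Actg2* (4.07) on FPKM and for *Actc1* (-3.01) on the scaled values, all as log2 differences. *Actg2* and *Actc1* were too low to test within *Pdgfra-tdT* cells, so their interactions largely restate the change in *Acta2-tdT* cells. *Acta2* lay near the added constants in *Pdgfra-tdT* bleomycin mice 6, 7 and 8, and its promoter drives the label of the *Acta2-tdT* line. Scaled, the interactions of *Acta2* (1.93 ± 0.78, adjusted p = 0.202) and *Actg2* (1.61 ± 0.60, adjusted p = 0.171) did not pass in limma, and the scaled call of *Actc1* was lost without each of 12 mice in turn, with no filter on low values and with the replicate block.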

How the results depend on the processing

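Outside the fits that left out 1 mouse, 432 log2 fold changes of single actins kept their direction and side of the threshold, 25 gained a call, 14 lost one and 2 turned sign, and the cause was not tested unless the setting itself shows it. With sample quality weights, 5 actins were called in the lines with saline on both scales in place of 3, and 1 (FPKM) and 3 (scaled) after bleomycin in *Pdgfra-tdT* in place of 0. Scaled *Actb* in the lines with bleomycin was also called with these weights (1.66, adjusted p = 0.039, limma), where 49.1% of all genes were. With the same weights the interaction called 4 on FPKM in place of 2 and 3 scaled in place of 1, and the scaled interactions of *Actb* and *Actg1* turned to -0.45 and -0.41. These weights raised the calls over all genes too, to 33.3% (FPKM) and 47.1% (scaled) in the lines with saline, 7.53% and 49% in *Pdgfra-tdT* and 64.2% and 14% in the interaction. The choice of scale moved the lines with bleomycin from 5 (FPKM) to 3 (scaled) and the interaction from 2 to 1. All 16 mice in 1 fit left 1 actin called after bleomycin in *Acta2-tdT* on the scaled values, in place of 4, and 39.7% of all genes. With no filter on low values the scaled interaction called 0, when more genes were tested, and *Actg2* (saline lines, FPKM) and *Actc1* (bleomycin lines, scaled) lost their calls. Counting only *Acta2* and *Actg2* as muscle actins, the bleomycin difference of the log2 ratio in *Acta2-tdT* was -1.50 in place of -1.78. Leaving out 1 mouse in turn gave 3 to 5 actins in the lines with saline on both scales, 5 (FPKM) and 3 to 4 (scaled) with bleomycin, 4 (FPKM) and 3 to 4 (scaled) in *Acta2-tdT*, 0 in *Pdgfra-tdT*, and in the interaction 2 to 4 (FPKM) and 0 to 3 (scaled). The 5 in the lines with saline came without *Pdgfra-tdT* saline mouse 3, the 4 in the scaled bleomycin lines without *Pdgfra-tdT* bleomycin mouse 5 or 8, the 3 in *Acta2-tdT* without *Acta2-tdT* bleomycin mouse 8, and the 4 and 3 in the interaction without *Pdgfra-tdT* bleomycin mouse 5, while its 0 came without each of 12 mice in turn. The log2 ratio differences then ran from 2.69 to 3.83 (saline lines), 4.67 to 5.81 (bleomycin lines), -1.92 to -1.66 (*Acta2-tdT*) and -4.25 to -3.02 (*Pdgfra-tdT*). *Actc1* after bleomycin in *Acta2-tdT* ran from -0.77 to 0.037 on FPKM, the latter without bleomycin mouse 5, and with quantile normalization it was called lower at -2.28 (adjusted p = 0.0078, limma). The scaled interactions of *Actb* and *Actg1* were at most 0.75 and 0.76 without 1 mouse, turned to -0.25 and -0.39 without *Pdgfra-tdT* saline mouse 3, and to -0.37 and -0.34 without *Pdgfra-tdT* bleomycin mouse 8. Leaving out both endothelial-rich *Pdgfra-tdT* mice, an alternative chosen after seeing the data, the interaction called 4 (FPKM) and 3 (scaled) and 54.7% and 13.8% of all genes, and no actin was called in *Pdgfra-tdT*.

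The replicate numbers were not taken to pair the mice. Same-numbered mice of the lines had correlations of -0.307 to 0.157 between deviations from their group means, which with so few mice cannot exclude a pairing. With the replicate block, the scaled interaction called 0 actins in place of 1, and it changed no other actin call, although it left 0.442% (FPKM) and 1.2% (scaled) of all genes called in the lines with saline and 0.355% in the scaled interaction. FPKM carry no counts, so low values such as *Actg2* in *Pdgfra-tdT* cells are limited by an unknown depth.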

Other observations

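Mesenchymal markers (6 genes, the fibrillar collagens among them) rose in sum in the *Acta2-tdT* line after bleomycin. They summed to 489 to 657 scaled FPKM in the *Acta2-tdT* mice given saline and 3943 to 6271 in *Acta2-tdT* bleomycin, with no overlap, and to 224 to 930.3 and 80.4 to 991 in the *Pdgfra-tdT* groups. After bleomycin in *Acta2-tdT* cells all 6 rose on FPKM and 5 when scaled (limma, adjusted p under 0.05), where 70.4% and 24.5% of all genes rose. Their median log2 difference was 5.38 on FPKM and 2.46 scaled, against 1.76 and -0.01 over all genes. Epithelial markers (5 genes) summed to 1197 to 15802 scaled FPKM in the *Acta2-tdT* mice given saline and 659 to 4709 in *Acta2-tdT* bleomycin, which overlap. Their part in the actin values was not tested.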
